A study of Arabidopsis thaliana with 6 samples.

Results

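The core of the flavonoid pathway, from chalcone synthase (CHS) to leucoanthocyanidin dioxygenase (LDOX), was followed in Arabidopsis thaliana plants that expressed a grapevine MYB factor. The genes were taken by locus identifier, as CHS (AT5G13930), chalcone isomerase (CHI, AT3G55120), the chalcone isomerase family gene AT5G66220, chalcone isomerase-like (CHIL, AT5G05270), flavanone 3-hydroxylase (F3H, AT3G51240), flavonoid 3'-hydroxylase (F3'H, AT5G07990) and LDOX (AT4G22880). These 7 loci had 8 features, out of 37118 features for 32627 loci on the array, because CHIL had 2 features and each other locus had 1. A feature is a set of 3 or 4 probes here, read as 1 value.

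The comparison was between 3 lines transformed with 35S::VvMYBPAR (PAR18-2, PAR9-2 and PAR36-4, here MYBPAR replicates 1, 2 and 3) and 3 lines that had received an empty vector (Cont1-1, Cont2-3 and Cont5-1, here empty vector replicates 1, 2 and 3). 35S is a promoter from cauliflower mosaic virus that is active in most plant tissues. Every line was of the Columbia ecotype, grew on agar with 30 mg/l kanamycin at 22 °C with 16 h of light per day, and was harvested as whole plants at 3 weeks. RNA of each line went onto 1 array with 1 colour, so within a group the effects of line, culture and array cannot be told apart. The features carry Arabidopsis locus identifiers, and the level of the grapevine transcript was not analysed here.

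Flavonoids are made from a phenylpropanoid precursor. CHS joins it to malonyl units to give a chalcone, CHI closes the ring to a flavanone, F3H adds the hydroxyl group that makes a dihydroflavonol, and F3'H, a cytochrome P450, adds a further hydroxyl group to the B ring. CHIL has no isomerase activity of its own and makes CHS more selective for its chalcone product. Beyond the dihydroflavonols the pathway splits: flavonol synthase (FLS1) leads to flavonols, while dihydroflavonol reductase (DFR) and LDOX lead to anthocyanidins, which anthocyanidin reductase (BAN) turns into the units of proanthocyanidins. In Arabidopsis, the early genes are known targets of the related factors MYB11, MYB12 and MYB111, and the late genes DFR, LDOX and BAN are known targets of complexes of a MYB, a bHLH and a WD40 protein.

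Values are log2 of RMA intensity. Median intensities lay between 859 and 887 on the 6 arrays. Mean log2 values of the features had 2 modes, separated by a minimum at 7.12. A signal in the low mode, below that minimum, may be background, and no detection call was used here. The leaf gene RBCS1A, the small subunit of Rubisco, read 14.76 to 15.05 and the root gene PYK10, a beta-glucosidase, 14.86 to 14.98 on all arrays. The leaf gene CAB2, a chlorophyll-binding protein gene, read 6.61 in MYBPAR replicate 2 and 9.35 to 10.35 on the others. All 5 seed and seed coat markers (OLEO1, CRU3, STK, TT16 and TT1) lay in the low mode on all arrays. Across all 37118 features, 2 passed the comparison of the groups, 0.00539% of those tested (limma, Benjamini-Hochberg adjusted p under 0.05), and both were higher in the MYBPAR lines. Levels of different features are not compared, since probes differ in brightness.

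Of the 7 genes, 5 had a feature above the low mode on every array: CHS, CHI, CHIL, F3'H and LDOX. All 5 had higher group means in the MYBPAR lines, by 0.25 to 0.49 on the log2 scale, and none of these differences passed the test across all features. The other 3 features, which are the F3H feature, the AT5G66220 feature and the first of the CHIL features, stayed in the low mode on all 6 arrays. Among all 8 features, 0 were called by limma, with or without a trend and robust moderation. In the fit without them, 0 of the 8 had an unadjusted p under 0.05, where 4.32% of all features had. With them, the unadjusted p was 0.0469 for LDOX and 0.0499 for F3'H (limma, adjusted p = 0.914 for both). All 8 log2 differences lay above 0, as did 53.7% of those of all features. The median log2 difference was 0.28 over the 8 features and 0.40 over the 5 above the low mode, against 0.017 over all features and 0.027 over the 23840 features above the low mode on every array.

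CHS, the entry enzyme, was the member whose groups did not overlap. Its log2 values were 13.61, 13.70 and 13.66 in MYBPAR replicates 1, 2 and 3 and 13.05, 13.56 and 13.48 in empty vector replicates 1, 2 and 3. The MYBPAR values lay close together, at 13.65 ± 0.05 (SD, n = 3), while the empty vector lines, at 13.36 ± 0.27 (SD, n = 3), had 1 low value in replicate 1. The log2 difference was 0.29 (SE 0.16, 95% interval -0.09 to 0.67; limma, adjusted p = 0.915, unadjusted p = 0.108), a fold of 1.22 with an interval of 0.942 to 1.59. Groups that do not overlap with the MYBPAR lines higher were found in 6.32% of all features and in 1 of the 8 members, a count too small to be read as a result about the members. In whole-plant RNA, more cells that make a transcript and more transcript per cell cannot be told apart.

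CHI, the ring-closing enzyme, read 11.33, 11.88 and 11.43 in MYBPAR replicates 1, 2 and 3. Its empty vector values were 10.83, 11.24 and 11.37. MYBPAR replicate 2 stood highest and empty vector replicate 1 lowest, and the groups overlapped because MYBPAR replicate 1 lay just below empty vector replicate 3. The group levels were 11.55 ± 0.29 (SD, n = 3) and 11.14 ± 0.28 (SD, n = 3), a log2 difference of 0.40 (SE 0.21, 95% interval -0.10 to 0.90; limma, adjusted p = 0.915, unadjusted p = 0.0975).

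The second feature of CHIL, the non-catalytic partner of CHS, read 13.46, 13.74 and 13.31 in MYBPAR replicates 1, 2 and 3 against 12.94, 13.46 and 13.36 in the empty vector replicates. Apart from the highest value in MYBPAR replicate 2 and the lowest in empty vector replicate 1, the values of both groups were interleaved. The group levels were 13.50 ± 0.22 (SD, n = 3) and 13.25 ± 0.27 (SD, n = 3), and the log2 difference was 0.25 (SE 0.18, 95% interval -0.20 to 0.69; limma, adjusted p = 0.915). The first CHIL feature gave a different picture. It read 6.36, 4.75 and 4.58 in the MYBPAR lines and 4.60, 4.55 and 5.74 in the empty vector lines, with the highest values in MYBPAR replicate 1 and empty vector replicate 3. With a pooled SD of 0.84, larger than in 97.8% of all features, and all values in the low mode, it had a log2 difference of 0.27 (SE 0.55, 95% interval -1.07 to 1.61). The files used here do not say which transcript or which part of the gene each CHIL feature reads.

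F3'H, the B-ring hydroxylase, had the largest log2 difference among the 8 features. It read 11.08, 11.88 and 11.41 in MYBPAR replicates 1, 2 and 3 and 10.73, 11.10 and 11.08 in the empty vector replicates. MYBPAR replicates 2 and 3 stood above all empty vector lines, while MYBPAR replicate 1 lay among them. The group levels were 11.46 ± 0.40 (SD, n = 3) and 10.97 ± 0.21 (SD, n = 3). The log2 difference was 0.49 (SE 0.23, 95% interval -0.06 to 1.04; limma, adjusted p = 0.915, unadjusted p = 0.0734), a fold of 1.40 with an interval of 0.958 to 2.05.

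LDOX, the last enzyme before the anthocyanidins, had a similar spread. It read 9.69, 10.36 and 10.06 in MYBPAR replicates 1, 2 and 3 against 9.36, 9.63 and 9.73 in the empty vector replicates. Again MYBPAR replicates 2 and 3 stood above the empty vector lines and replicate 1 did not, by a margin from 9.69 to 9.73. The group levels were 10.04 ± 0.33 (SD, n = 3) and 9.57 ± 0.19 (SD, n = 3). The log2 difference of 0.47 (SE 0.20, 95% interval -0.01 to 0.95; limma, adjusted p = 0.915, unadjusted p = 0.0552) had the smallest p of the 8 features, and its fold was 1.38 with an interval of 0.990 to 1.93.

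The feature of F3H, the enzyme between CHI and the dihydroflavonols, read 4.76, 5.13 and 3.86 in MYBPAR replicates 1, 2 and 3 and 4.15, 4.15 and 4.79 in the empty vector replicates. On the linear scale this was 14.5 to 34.9 intensity units. These values gave a log2 difference of 0.22 (SE 0.36) with both groups in the low mode, so no fold is given. The chalcone isomerase family gene AT5G66220, to which the gene table gives no symbol, read 4.91, 5.68 and 5.29 against 5.21, 5.38 and 4.80, with a log2 difference of 0.17 (SE 0.24) and no fold for the same reason. MYBPAR replicate 2 was highest for both, while the lowest array was MYBPAR replicate 3 for F3H and empty vector replicate 3 for AT5G66220. Which part of either gene these features read is not given in the sources used here, so low values need not mean low transcript levels.

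**Figure D1:**
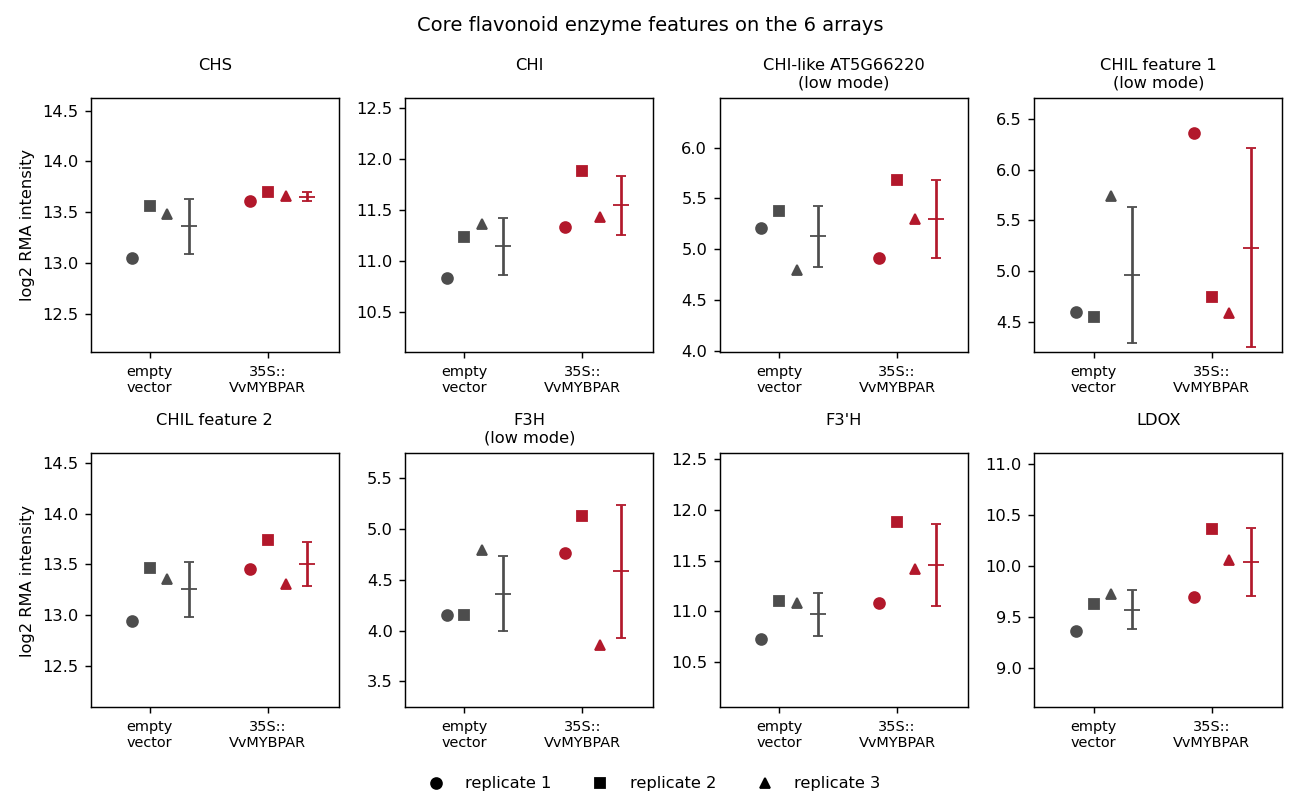
Log2 RMA intensity (vertical axis, every panel spanning the same number of log2 units) of the 8 features in the 3 empty vector lines (grey) and the 3 35S::VvMYBPAR lines (red), with symbols for the replicate number and bars for the mean ± SD of 3 lines. CHS is the panel in which the groups do not overlap; in CHI, F3'H and LDOX MYBPAR replicate 1 lies level with the empty vector lines, and 3 features lie in the low mode.

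For CHI, F3'H and LDOX, whether the groups overlapped depended on single arrays. Groups that do not overlap on 6 arrays cannot overlap on fewer. CHS therefore had to stay without overlap, and all counts could only stay or rise. Without MYBPAR replicate 1, CHS, CHI, F3'H and LDOX (4 of 8 features) had groups that did not overlap, where 15.6% of all features were higher in this way. Without empty vector replicate 3 there were 3, namely CHS, CHI and LDOX, against 10.8% of all features. Leaving out any 1 of the other 4 arrays gave 1, CHS, against 9.36%, 11.2%, 13.6% and 11.3% of all features without MYBPAR replicate 2, MYBPAR replicate 3, empty vector replicate 1 and empty vector replicate 2.

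The differences of the 5 features above the low mode stayed above 0 in all 6 fits that left out 1 array, and 0 of 8 features were called in any of them. For LDOX they ran from 0.30 without MYBPAR replicate 2 to 0.64 without MYBPAR replicate 1. For F3'H they ran from 0.28 to 0.68 with the same arrays left out. For CHS the range was 0.14 without empty vector replicate 1 to 0.39 without empty vector replicate 2, for CHI 0.24 to 0.51 and for the second CHIL feature 0.09 to 0.35. With both MYBPAR replicate 2 and empty vector replicate 1 left out, the log2 differences were 0.11 for CHS, 0.08 for CHI, 0.16 for F3'H, 0.20 for LDOX and -0.027 for the second CHIL feature. That choice was made after the values were seen, and it takes away the highest MYBPAR array and the lowest control array together.

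**Figure D2:**
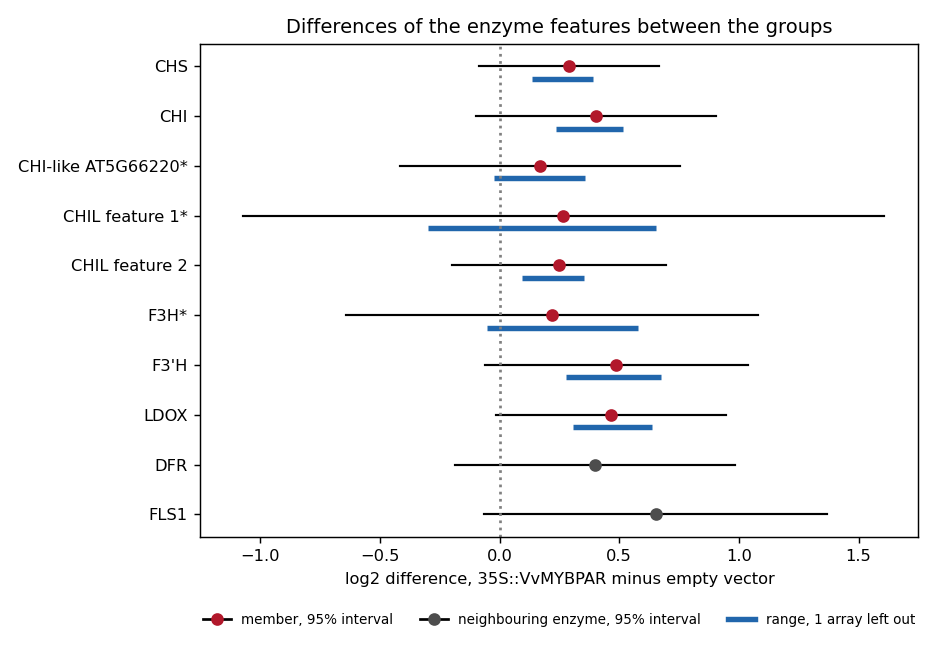
Log2 difference of the group means (horizontal axis, 35S::VvMYBPAR minus empty vector) for the 8 features and for the neighbouring enzymes DFR and FLS1, with the 95% interval of the limma fit (black) and, for the 8 features, the range over the 6 fits with 1 array left out (blue); a star marks features in the low mode. All 8 points lie above 0 and every interval includes 0, the nearest being LDOX at -0.01 to 0.95.

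The 5 enzymes above the low mode shared their extreme arrays. All 5 were highest in MYBPAR replicate 2 and lowest in empty vector replicate 1, a pair of extremes found in 4.15% of the 23840 features above the low mode. MYBPAR replicate 2 alone was the highest array for 26.8% of those features, and empty vector replicate 1 the lowest for 14.4%. The mean of the 5 genes, each centred on its own mean over the arrays, was -0.015, 0.46 and 0.12 in MYBPAR replicates 1, 2 and 3 and -0.47, -0.053 and -0.047 in empty vector replicates 1, 2 and 3. MYBPAR replicate 1 was thus nearer to empty vector replicates 2 and 3 than to the other MYBPAR lines. Genes of other lists had the same highest and lowest arrays, among them DFR, FLS1, the ligase gene 4CL3, MYB111 and the floral genes AP1 and SEP1. BAN, by contrast, was highest in MYBPAR replicate 1, with 11.69, 10.63 and 10.43 in the MYBPAR lines and 4.69, 4.76 and 4.67 in the controls.

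Between arrays, the members moved together to different degrees. Pearson's r over 6 arrays was computed for the 21 pairs of loci, with the CHIL locus read by its second feature, and 20 were above 0. For the 10 pairs among CHS, CHI, CHIL, F3'H and LDOX it lay between 0.78 and 0.99. None of the 21 passed an exact two-sided permutation test over the 720 pairings of arrays after Benjamini-Hochberg adjustment over the 21 pairs, the smallest adjusted p being 0.0729, and 5 had an unadjusted p under 0.05. The smallest p that 6 arrays allow is 0.00139. For the 11 pairs with F3H or AT5G66220, r lay between -0.020 and 0.64. The arrays share 1 normalization, and an array that stands apart enters every pair.

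The pairs differed in how far r changed without the extreme arrays. F3'H and LDOX had r = 0.99 (exact permutation p = 0.00694, adjusted p = 0.0729) and Spearman's rho 0.83 (exact permutation p = 0.0583). Without the 2 arrays farthest from the median of F3'H, MYBPAR replicate 2 and empty vector replicate 1, r was 0.96. Among the arrays kept, MYBPAR replicate 3 stood apart, at 11.41 for F3'H and 10.06 for LDOX. The others read 11.08 to 11.10 and 9.63 to 9.73, so the r of 0.96 rests largely on that array. CHI and LDOX had r = 0.95 (exact permutation p = 0.00417, adjusted p = 0.0729), placed the 6 arrays in the same order (rho 1, exact permutation p = 0.00278, adjusted p = 0.0583) and kept r = 0.86 on the other 4 arrays. CHI and F3'H had r = 0.96 (exact permutation p = 0.0153, adjusted p = 0.107) and rho 0.83 (exact permutation p = 0.0583). Without MYBPAR replicate 2 and empty vector replicate 1, r was 0.69. MYBPAR replicate 3 was the highest array kept in both genes and stood apart in F3'H, so this value also rests largely on it.

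Once the extremes were left out, the r of CHIL with these 3 genes fell below 0. On the 4 arrays left CHIL read only 13.31 to 13.46, and r over 4 arrays was not tested. CHI and CHIL had r = 0.91 over 6 arrays (exact permutation p = 0.0667, adjusted p = 0.169; rho 0.43, exact permutation p = 0.419) and -0.88 over the other 4. For CHIL with F3'H the values were 0.83 (exact permutation p = 0.0625, adjusted p = 0.169; rho 0.60, exact permutation p = 0.242) and -0.75, and for CHIL with LDOX 0.78 (exact permutation p = 0.0722, adjusted p = 0.169; rho 0.43, exact permutation p = 0.419) and -0.86. The relation of CHIL to these genes therefore rests on MYBPAR replicate 2 and empty vector replicate 1. CHS and CHIL, the enzyme and its partner, had r = 0.88 (exact permutation p = 0.0278, adjusted p = 0.128; rho 0.60, exact permutation p = 0.242) and -0.15 without the same arrays. CHS and CHI had 0.86 (exact permutation p = 0.0306, adjusted p = 0.128; rho 0.83, exact permutation p = 0.0583) and 0.34. CHS with F3'H and with LDOX had 0.78 and 0.79 (exact permutation p = 0.0889 and 0.0639, adjusted p = 0.187 and 0.169; rho 0.83 and exact permutation p = 0.0583 for both) and 0.71 and 0.63 on the other 4 arrays. Of these 4 arrays, MYBPAR replicate 3 was highest in CHS, F3'H and LDOX and stood apart in F3'H and LDOX. Both values therefore rest largely on that array.

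Taking each value as a deviation from its own group mean, which removes the difference between the groups, left r above 0 in all 10 pairs, from 0.60 for CHS with LDOX to 0.98 for F3'H with LDOX. Of the 24754 features with a mean above the low mode, 1.80% followed CHS as closely as CHI did over the 6 arrays, 1.36% as closely as CHIL, 3.75% as closely as F3'H and 3.48% as closely as LDOX, by Pearson's r and with no test.

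**Figure D3:**
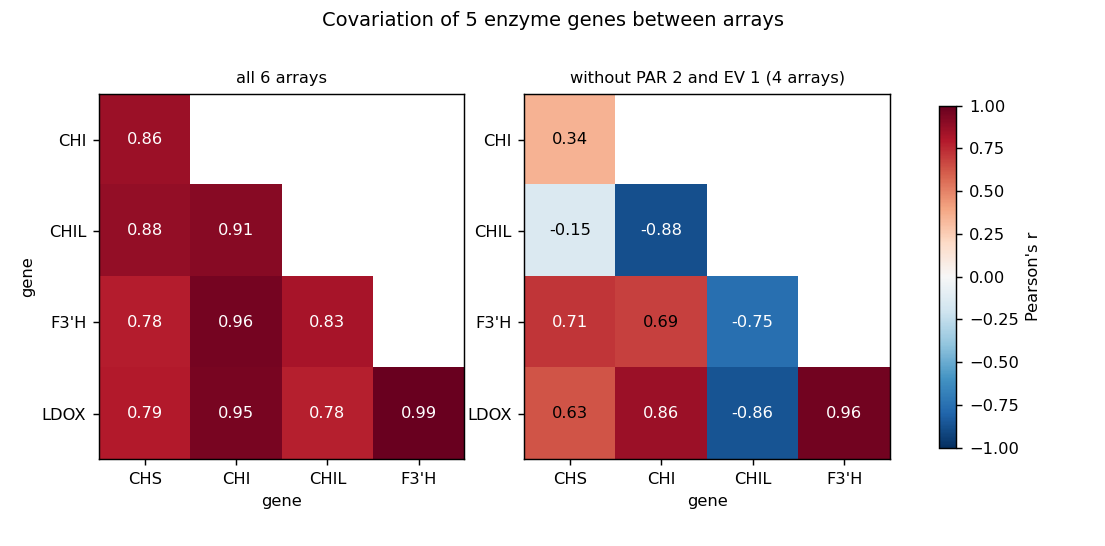
Pearson's r between arrays for the 10 pairs of the 5 enzyme genes above the low mode, over all 6 arrays (left) and over the 4 arrays left without MYBPAR replicate 2 (PAR 2) and empty vector replicate 1 (EV 1) (right); the colour runs from -1 (blue) to 1 (red). All pairs lie at 0.78 or more over 6 arrays, and on 4 arrays the pairs with CHIL turn to between -0.88 and -0.15. F3'H with LDOX stays at 0.96 on 4 arrays, where MYBPAR replicate 3 stands apart from the others in both genes.

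Markers of plant state also differed between these arrays. The floral organ genes SEP1, SEP2, SEP3, AP1, AP3, PI and AG had a mean log2 value of 9.48, 10.24 and 10.34 in MYBPAR replicates 1, 2 and 3 and 8.55, 10.02 and 9.34 in empty vector replicates 1, 2 and 3. Of these 7 genes 0 passed the test, 7 had log2 differences above 0, and their intensities summed to 6729 to 11486 in the MYBPAR lines and 3649 to 8478 in the empty vector lines. Their mean and the mean profile of the 5 enzymes had r = 0.85 over 6 arrays (exact permutation p = 0.0347, adjusted p = 0.0694 over 2 relations; rho 0.77, exact permutation p = 0.103). Without empty vector replicate 1 and MYBPAR replicate 3, whose floral means were farthest from the median, r was 0.71. MYBPAR replicate 2, with the highest enzyme profile at 0.46, was among the arrays kept. The others kept had profiles of -0.015, -0.053 and -0.047, so the r of 0.71 rests largely on MYBPAR replicate 2. The part of the floral genes in the enzyme differences was not tested. With the floral mean as a covariate, the log2 differences were 0.10 for CHS, 0.19 for CHI, 0.06 for the second CHIL feature, 0.22 for F3'H and 0.25 for LDOX, with 0 of 8 features called.

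A clock score, the mean of the morning genes CCA1, LHY and PRR9 minus that of the evening genes TOC1, ELF4, LUX and GRP7, was -5.84 in MYBPAR replicate 2, the array on which the enzymes were highest, and -2.22 in empty vector replicate 1, where they were lowest. The other arrays had scores between -0.27 and 2.51. Over 6 arrays the score and the enzyme profile had r = -0.42 (exact permutation p = 0.367, adjusted p = 0.367) and rho -0.26 (exact permutation p = 0.658). Without MYBPAR replicate 2 and empty vector replicate 3, whose scores were farthest from the median, r was 0.85. The sign thus depended on the arrays left out, and empty vector replicate 1 was among those kept. With the score as a covariate, the log2 differences were 0.33 for CHS, 0.36 for CHI, 0.23 for the second CHIL feature, 0.39 for F3'H and 0.40 for LDOX, and 0 of 8 features were called. Both scores use genes that were chosen with their values on these arrays known. Leaf, root and seed markers had 0 of 4, 0 of 5 and 0 of 5 members called, with median log2 differences of -0.049, 0.024 and 0.37. CAB2, lowest where the enzymes were highest, had -1.14 (SE 0.91) and r = -0.70 with the enzyme profile over 6 arrays, as a description. The other leaf genes went both ways, with r = -0.58 for CAB3, 0.75 for RCA and 0.18 for RBCS1A. The root gene WOX5 had 0.48 (SE 0.12; limma, adjusted p = 0.915), with no overlap of the groups and all values in the low mode. It was 1 of the 5 root genes, against 6.32% of all features higher in this way. Summed intensities ran from 98504 to 107641 in the MYBPAR lines and from 102608 to 107986 in the empty vector lines for the leaf list, from 36566 to 37991 and from 37078 to 39186 for the root list, and from 124 to 310.1 and from 139 to 191 for the seed list.

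**Figure D4:**
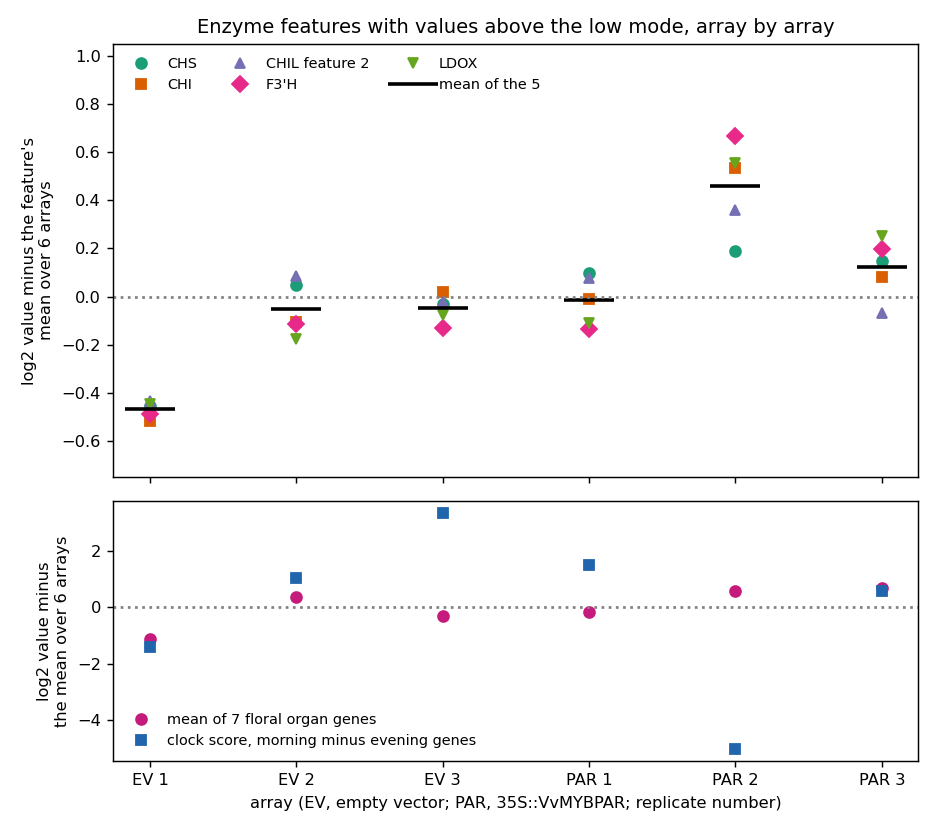
Upper panel, log2 value of each of the 5 enzyme features above the low mode minus its mean over the 6 arrays, with the mean of the 5 as a bar; lower panel, the mean of 7 floral organ genes and the clock score, centred in the same way, for empty vector (EV) and 35S::VvMYBPAR (PAR) replicates. The enzyme mean is lowest at -0.47 in EV 1 and highest at 0.46 in PAR 2, with PAR 1 at -0.015, near with EV 2 and EV 3.

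Next to the core enzymes, the branch enzymes DFR, BAN and FLS1 to FLS6 showed 1 member of 8 higher past the threshold across all features, 0 lower, and a median log2 difference of 0.22. The called member was BAN, the reductase that uses the product of LDOX, which was 6.21 higher on the log2 scale (SE 0.33; limma, adjusted p = 0.0283), and its control values lay in the low mode. This call was lost with the replicate block (adjusted p = 0.123), with the clock and floral covariates (adjusted p = 0.285 and 0.116), and in 5 of the 6 fits that left out 1 array, with adjusted p from 0.0562 without MYBPAR replicate 3 to 0.545 without empty vector replicate 3 (limma). It held without MYBPAR replicate 1 (adjusted p = 0.00141), and with 1 array left out the log2 difference lay between 5.82 and 6.45. DFR, which supplies the substrate of LDOX, read 11.66, 12.10 and 11.95 in MYBPAR replicates 1, 2 and 3 against 11.12, 11.43 and 11.98. Empty vector replicate 3 thus stood above MYBPAR replicates 1 and 3, and the log2 difference was 0.40 (SE 0.24; limma, adjusted p = 0.915).

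FLS1, the main flavonol synthase, read 10.74, 11.71 and 11.08 in the MYBPAR lines against 10.19, 10.92 and 10.47 in the controls, 0.65 higher on the log2 scale (SE 0.30; limma, adjusted p = 0.915). It shared the highest and the lowest array with the core enzymes. Over 6 arrays its r with CHS, CHI, CHIL, F3'H and LDOX was 0.80, 0.90, 0.85, 0.96 and 0.93, and without MYBPAR replicate 2 and empty vector replicate 1 it was 0.85, 0.065, -0.12, 0.74 and 0.54. For DFR the values in the same order were 0.80, 0.89, 0.71, 0.81 and 0.87 over 6 arrays and -0.041, 0.92, -0.90, 0.47 and 0.68 over the other 4. The relations of FLS1 to CHI and of DFR to CHS, and those of both to CHIL, thus rested on the extreme arrays. These correlations are descriptions over 6 and 4 arrays.

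Upstream, in the 9 genes that feed CHS with its precursor, 0 were called in either direction, the difference was above 0 in 5, and its median was 0.094. The coumarate ligase gene 4CL3, known for its part in flavonoid synthesis, read 10.62, 11.25 and 10.66 against 9.57, 10.53 and 10.14, so its groups did not overlap. Its log2 difference was 0.77 (SE 0.29; limma, adjusted p = 0.915). A second ligase gene, 4CL2, had 0.31 (SE 0.12; limma, adjusted p = 0.915), also without overlap. These were 2 of the 9 genes, against 6.32% of all features higher in this way. 4CL5 had 0.16 (SE 0.14), and PAL1, a phenylalanine ammonia-lyase, had 0.10 (SE 0.10).

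Among 15 genes that decorate or carry flavonoids, 0 were called, the difference was above 0 in 11 and its median was 0.15. The proton pump AHA10 had 1.42 (SE 0.10; limma, adjusted p = 0.0794) and the laccase TT10 0.78 (SE 0.22; limma, adjusted p = 0.915), both without overlap of the groups. These were 2 of the 15 genes, against 6.32% of all features higher in this way. The flavonol glycosyltransferase UGT78D1 had 0.39 (SE 0.18), and UGT78D3 had 0.32 (SE 0.19), with values on both sides of the minimum between the modes.

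Of 15 regulators of these genes, 0 were called, the difference was above 0 in 10 and its median was 0.32. MYB111, an activator of CHS, CHI, F3H and FLS1, read 8.26, 9.62 and 8.60 in the MYBPAR lines against 7.19, 7.95 and 7.52. It had the same extreme arrays as the enzymes, and its groups did not overlap, and the MYBPAR lines were 1.28 higher on the log2 scale (SE 0.38; limma, adjusted p = 0.915). TT8, the bHLH partner in complexes that act on the late genes, had 2.00 (SE 0.32; limma, adjusted p = 0.915), with control values in the low mode. MYB5 had 0.64 (SE 0.15) and the phenylpropanoid repressor gene MYB4 had 0.66 (SE 0.23), both with an adjusted p of 0.915 (limma). The groups of TT8, MYB5 and MYB4 did not overlap either. With MYB111 this made 4 of the 15 regulators, against 6.32% of all features higher in this way, and the share was not tested.

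Features most like the mean profile of the 5 enzymes were sought among 4815 features of other loci that lay above the low mode on average and varied at least as much between arrays (SD of the profile 0.30). The 5 with the highest r over 6 arrays were TBL26 (0.99), SEP1 (0.97), AT4G29030 (0.97), ANK (0.97) and AT4G04745 (0.96). TBL26 belongs to the trichome birefringence-like family, SEP1 is a floral organ identity gene, and ANK is listed as an ankyrin gene. In all, 64 of the 4815 features, 1.33%, had an r of at least 0.9. The flavonoid genes 4CL3, FLS1 and MYB111 ranked 11, 21 and 26 with r = 0.96, 0.95 and 0.94, and the floral gene AP1 ranked 15 with r = 0.95. MYB4 and DFR ranked 116 and 128 with r = 0.87 and 0.86. Other flavonoid genes ranked lower, with AHA10, TT8, BAN, MYB5 and TT10 at 496, 555, 660, 826 and 1309 and r from 0.71 down to 0.37. Some genes of the branch enzyme, upstream, decoration and transport, and regulator lists had r below 0, the lowest at -0.73.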

How the data were processed

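RNA of 6 lines was measured on NimbleGen arrays with 1 colour, and samples were grouped by the construct in the labels. The authors deposited 1 linear intensity per feature and array, made with RMA according to the submitters' processing notes, and log2 of the same values as a series table. RMA corrects background, brings the arrays to 1 distribution and summarises probes, so a shift common to most transcripts is removed. Neither the RMA version nor the probe annotation is given in the sources used here. Log2 intensities were tested in R 4.3.3 by limma 3.58.1 (eBayes with no trend, no filter and no covariate, 37118 features, 3 against 3 arrays), with Benjamini-Hochberg adjustment over all features and a threshold of 0.05. An exact permutation test of 3 against 3 cannot go below p = 0.1. For this comparison the fit was also run on simulated data (37118 features, 200 changed, 5 repeats). There it recovered 49.2% of changes of 1 on the log2 scale, 91.0% of changes of 2 and 99.6% of changes of 4. False calls made up 4.60%. Differences as small as those of the enzymes were not simulated. On the arrays 2 features were called, against 200 changed in the simulation, so these rates need not hold here. BAN, at 6.21, was called (limma, adjusted p = 0.0283). TT8, at 2.00, and AHA10, at 1.42, were not (limma, adjusted p = 0.915 and 0.0794). Correlations were computed with numpy 2.4.6.

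Names come from the RefSeq gene table of TAIR10.1, which matched 31993 of 32627 loci and all 7 enzyme loci. No coordinates are given, since no build is named for the arrays. Per the labels, replicates were separate cultures. A locus with several features was represented by the brightest one in lists and correlations. Named are all enzyme features, DFR, BAN and FLS1, up to 4 genes of each other list by smallest p, and the 5 features most like the enzyme profile. Outside this rule, RBCS1A and PYK10 were named as examples of their organs after their values were seen, and the floral and clock genes, the seed markers and the relatives of the enzymes are named as whole lists. The members, lists and scores were chosen with earlier results of these data known. Same-numbered lines of the groups had correlations of their deviations from the group means of 0.30, -0.06 and 0.24, so the numbers were not taken to pair them. The alternatives were other scalings, the series table, other variance models, log2(value + 32), leaving out the dimmest 25% of features, array weights, the replicate block, the floral and clock covariates, and leaving out arrays.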

Additional observations from a re-analysis of the deposited data

How the results depend on the processing

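The count of 0 called enzyme features held under every alternative run, with a smallest adjusted p of 0.460 (limma, LDOX without MYBPAR replicate 1). All 8 were tested each time, except that leaving out the dimmest 25% of features left 5 of them to test. Across all features the count of 2 was 0 with the clock covariate, the floral covariate and the replicate block, 0 with both extreme arrays left out (added after the values were seen), and 0 to 3 when 1 array was left out, 0 in each case but that of MYBPAR replicate 1; the cause was not tested. Of 133 recomputed differences of single features, 126 kept their sign. The low-mode features changed sign: AT5G66220 to -0.023 with the clock covariate and -0.019 with the floral covariate, and F3H to -0.16 with both extreme arrays left out. With 1 array left out their ranges were -0.025 to 0.36 for AT5G66220, -0.30 to 0.65 for the first CHIL feature and -0.054 to 0.58 for F3H, the low ends being without MYBPAR replicate 2, 1 and 2. The second CHIL feature went to -0.027 with both extreme arrays left out. With the replicate block, which the check of the numbers did not bear out, the differences were the same by construction, such as 0.47 for LDOX, with unadjusted p of 0.0265 for LDOX and 0.0255 for F3'H and adjusted p of 0.806 for both (limma). By the deviations from the group means, MYBPAR replicates 1 and 2 were closest to empty vector replicate 1, and MYBPAR replicate 3 to empty vector replicate 2. The correlation count of 0 pairs also held with means over the features of a locus and with centring on array medians. Precision is limited by 3 arrays a group, and the 3 low-mode features may hold background.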

Other observations

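Relatives of the core enzymes outside flavonoid synthesis were read on the same arrays. The type III polyketide synthase genes PKSA and PKSB, relatives of CHS that act in pollen wall formation, had log2 differences of 0.14 (SE 0.19) and 1.02 (SE 0.54), and AT4G00040, another gene of that family, had 0.04 (SE 0.13). PKSB read 10.33, 10.37 and 10.79 in MYBPAR replicates 1, 2 and 3 and 8.40, 10.65 and 9.37 in empty vector replicates 1, 2 and 3, so empty vector replicate 1 was lowest here too and the groups overlapped. The chalcone isomerase-fold genes FAP1, FAP2 and FAP3, which bind fatty acids in plastids, had 0.12 (SE 0.12), 0.30 (SE 0.17) and 0.14 (SE 0.14). The difference was above 0 in all 6 relatives, its median was 0.14, and 0 of 6 were called (limma, smallest adjusted p 0.915).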
